A study of Mus musculus with 25 samples.

Results

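Tubulins and neurofilaments build the 2 kinds of polymer that fill the long axons of spinal motor neurons. Expression of 10 of these genes was examined in spinal cord cholinergic neurons, namely the beta-tubulins Tubb6, Tubb2a, Tubb2b, Tubb3, Tubb4a and Tubb5, the alpha-tubulin Tuba1a, and the light, medium and heavy neurofilament subunits Nefl, Nefm and Nefh. The members were chosen by symbol, with earlier results of these data known. All 10 were found among the 50559 genes of the count table and passed the filter on low counts that left 21738 genes for testing. The mRNAs came from 6-mo-old male mice, collected at ZT8 (zeitgeber time, in hours after lights on, thus in the light) and at ZT20 (in the dark), with 6 mice per condition. Control mice were ChAT-Cre;RiboTag fx/+, and ChAT-BKO mice were ChAT-Cre;RiboTag fx/+;Bmal1 fx/fx, so that both carried the Cre driver and the tagged ribosome and the controls had no floxed Bmal1. Bmal1 (listed as Arntl) encodes a transcription factor without which the circadian clock of the cell stops. RiboTag puts a hemagglutinin tag on a ribosomal protein in every cell with ChAT-Cre, which includes motor neurons and other cholinergic neurons, and the HA immunoprecipitate (IP) of each spinal cord was sequenced. One further library was the input, RNA of whole spinal cord pooled from both genotypes.

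The 24 IP libraries held 4.04 to 31.7 M counts and the input 7.40 M. Levels are given as CPM, which are counts scaled to a common library size (per 1e+06 counts, with TMM factors), with the SD over the 6 mice of a condition. For ratios to the input, CPM were taken per 1e+06 total counts without TMM factors, unless TMM is named. Arntl fell in ChAT-BKO neurons by 1.64 on the log2 scale at ZT8 (8.44 to 2.64 CPM) and by 2.08 at ZT20 (8.73 to 1.92 CPM), with no overlap between the genotypes (adjusted p = 1.56e-05 and 1.98e-07 from edgeR). All 7 cholinergic markers were above the input (median log2 ratio 2.29), and none of the markers of oligodendrocytes, astrocytes, microglia, endothelial cells, fibroblasts, Schwann cells, skeletal muscle or other neurons was. The libraries are of bulk IP material, in which a change in the number of cholinergic neurons cannot be told apart from a change in RNA per neuron.

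As background, microtubules are polymers of alpha- and beta-tubulin dimers, on which kinesin and dynein motors carry cargo along the axon. Vertebrates have several beta-tubulin isotypes that differ mostly in their C-terminal tails, and neurons mix them. Tubb3 is the isotype typical of neurons, Tubb2a and Tubb2b are 2 closely related isotypes of which Tubb2b is prominent in developing brain and in glia, Tubb4a is abundant in oligodendrocytes and mature brain, Tubb5 is made by most cells, and Tubb6 is a minor, widely expressed isotype. Neurofilaments are intermediate filaments assembled from Nefl, Nefm and Nefh, often with Ina or Prph (alpha-internexin and peripherin), and set the caliber of large myelinated axons. Neurofilament light chain released from damaged axons is a widely used fluid marker of motor neuron disease.

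The pair Tubb2a and Tubb2b is shown by sequence because reads cannot always be assigned between them and because their ratio is one of the measures below. Both genes lie on the minus strand of chromosome 13 (GRCm38), Tubb2a at 34074274 to 34078007 and Tubb2b at 34126748 to 34130466. Their coding sequences in the reference transcripts have 1338 bases each and differ at 47 of them, an identity of 96.5%. The last 60 coding bases, which encode the C-terminal tail and the stop codon, lie in the last exon of each gene, at chr13:34074468-34074527 and chr13:34127471-34127530. They differ at 3 bases, none of which changes the encoded amino acid. These bases are printed in capitals, 5′ to 3′ on the coding strand:
Tubb2a: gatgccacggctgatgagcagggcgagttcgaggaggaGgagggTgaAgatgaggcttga
Tubb2b: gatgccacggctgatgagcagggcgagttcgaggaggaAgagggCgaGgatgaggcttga

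Of all stretches of 150 bases in the longest Tubb2a transcript, 27.9% occur unchanged in a transcript of another gene, namely Tubb2b or the pseudogene Tubb2a-ps2. The share was 20.1% for Tubb2b, and 54.7% for Tuba1a, which shares most with Tuba1c and the overlapping locus Gm49450. No such stretch was found for the other 7 members. The deposited counts are estimates that split ambiguous reads, and they were fractional in all 25 libraries for Tubb2a, Tubb2b, Tuba1a and Nefm and in 12 libraries for Nefh, while those of the other 5 members were always whole. Values of Tubb2a, Tubb2b and Tuba1a therefore depend on how the estimate divided shared reads. Nefl (chromosome 14, 68083863 to 68089095, plus strand) lies inside the annotated span of Nefm (68082590 to 68124846, minus strand), and 1108 exonic bases of the 2 genes overlap on opposite strands. The library kit keeps strand, but the strand setting of the counting is not given in the sources used here, so that a part of their counts may be uncertain. In the same build, the other members lie as follows, namely Tubb3 (ENSMUSG00000062380, chromosome 8, 123411424 to 123422015, plus strand), Tubb4a (ENSMUSG00000062591, chromosome 17, 57080066 to 57087782, minus strand), Tubb5 (ENSMUSG00000001525, chromosome 17, 35833921 to 35838306, minus strand), Tuba1a (ENSMUSG00000072235, chromosome 15, 98949837 to 98953703, minus strand) and Nefh (ENSMUSG00000020396, chromosome 11, 4938754 to 4948064, minus strand).

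Bmal1 protein binds E-box elements, and promoters were searched for the E-box CACGTG on both strands. RefSeq promoter windows (250 bases before to 50 after the transcription start, GRCm38.p6) were found for 5 members, Tubb2a, Tubb3, Tubb4a, Tubb5 and Tuba1a. The element was present in 1 of the 5, Tubb5, where it begins 75 bases before the start, and in 7.15% of all 32851 promoters of the same length. The 200 bases before the start are shown for Tubb5, with the E-box in capitals, and for Tubb2a, whose window holds no E-box. Of the 5 members with a window, Tubb2a was the one whose mean lay higher in ChAT-BKO neurons at both time points. Tubb5 is at chr17:35838302-35838501 and Tubb2a at chr13:34078009-34078208, both on the minus strand.
Tubb5: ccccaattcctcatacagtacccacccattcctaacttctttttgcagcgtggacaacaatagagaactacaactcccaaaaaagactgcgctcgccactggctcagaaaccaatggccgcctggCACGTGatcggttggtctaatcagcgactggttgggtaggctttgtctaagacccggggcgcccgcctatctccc
Tubb2a: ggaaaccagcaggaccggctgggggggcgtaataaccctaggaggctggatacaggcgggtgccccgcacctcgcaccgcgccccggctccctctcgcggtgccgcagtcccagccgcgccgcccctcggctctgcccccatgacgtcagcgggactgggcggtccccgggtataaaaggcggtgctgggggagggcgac
The D-box TTATGTAA, the RORE core AGGTCA and the heat shock element GAANNTTC, searched on both strands, were in none of the 5 windows and in 0.938%, 16.3% and 7.86% of all promoters. These are matches of letters, not sites of binding.

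Neurofilament mRNAs were the most counted mRNAs of the cholinergic neuron IP. Averaged over the 24 libraries, Nefm was at 14246 CPM, Nefl at 13711 CPM and Nefh at 9495 CPM, which are ranks 1, 2 and 3 of all genes tested. Together the 3 genes took 3.75 ± 0.164% of all IP counts (SD, n = 24) against 0.558% of the input. The 7 tubulins took 1.50 ± 0.0455% of IP counts against 0.505% of the input. Counts scale with transcript length, and per kb of mean transcript length Nefm (4062 CPM per kb) and Nefl (4057) were level, above Tubb3 (3522) and Nefh (2377). Their ranks were 5, 6, 9 and 17 among the tested genes with an annotated transcript length. Tuba1a was at 2235 CPM per kb, Tubb5 at 1721, Tubb2a at 1397 and Tubb4a at 797. Tubb2b (69.6 CPM per kb) and Tubb6 (16.7) were far below these.

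Within the neurofilament pool, counts per kb were divided into 38.7% Nefl, 38.7% Nefm and 22.7% Nefh, with SDs of 0.626 to 1.42 percentage points over the 24 libraries. In the input the shares were 45.4% Nefl, 34.7% Nefm and 19.8% Nefh. Nefl was also one of the steadiest of the abundant transcripts. The SD of its log2 CPM about the condition means was 0.0459, the 7th lowest among the 113 genes at 1000 CPM or more. The SD was 0.0578 for Tubb5, 0.0600 for Tubb3, 0.0699 for Nefh, 0.106 for Nefm and 0.199 for Tubb6, the least abundant and most variable member.

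**Figure D1:**
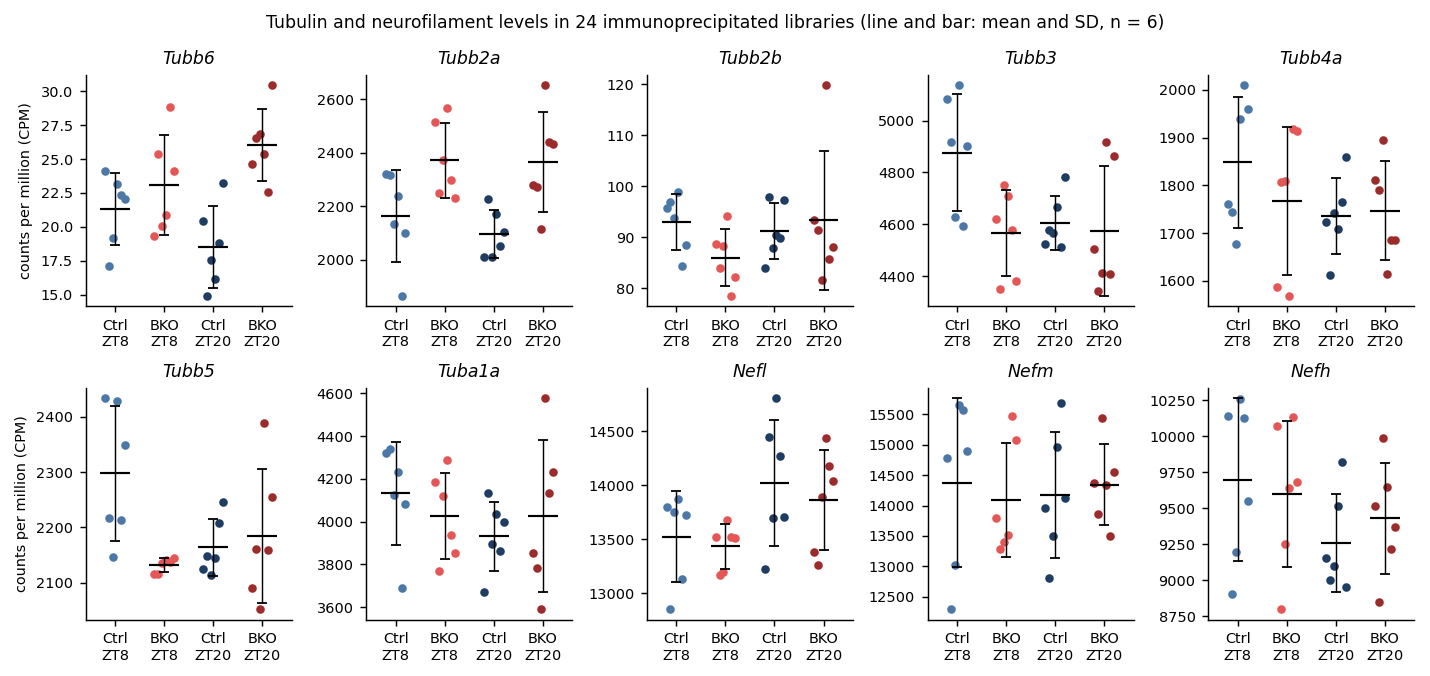
Levels of the 10 members in CPM (linear axes that do not start at 0) in each of the 24 IP libraries, by genotype and time point, with the mean as a line and the SD as a bar (n = 6). Tubb6 at ZT20 lay between 14.9 and 23.2 CPM in controls and between 22.5 and 30.5 CPM in ChAT-BKO neurons, while the 3 neurofilament genes overlapped between all conditions.

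The IP enriched 8 of the 10 members by 2.78-fold or more over the input. Against the 1 input library, and with 0.5 CPM added to both values, the mean log2 ratio over 24 IP libraries was 2.93 ± 0.0698 for Nefh, 2.89 ± 0.107 for Nefm and 2.50 ± 0.0470 for Nefl (SD). Among the tubulins it was highest for Tubb3 at 2.57, followed by Tubb2a at 2.08, Tubb5 at 2.02, Tuba1a at 1.52 and Tubb6 at 1.47. Over the 15411 genes with at least 1 CPM in the input the median log2 ratio was -0.54, and 32.1% were above the input. Neighbours in this order such as Nefh and Nefm, Nefl and Tubb3, Tubb2a and Tubb5, or Tuba1a and Tubb6 were not separated, since the ranges of their libraries overlapped. The 2 members that stood apart were Tubb4a, whose level in the IP was close to that of the input (log2 ratio 0.13 ± 0.113), and Tubb2b, which was lower in the IP than in the input (log2 ratio -0.86 ± 0.111). With TMM scaling over all 25 libraries every one of these ratios was higher, and Tubb2b stayed below the input at -0.41. No replicate of the input exists, so these ratios carry no test. Of the filament proteins that join neurofilaments, Prph had a log2 ratio of 3.85 and Ina of -0.75.

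**Figure D2:**
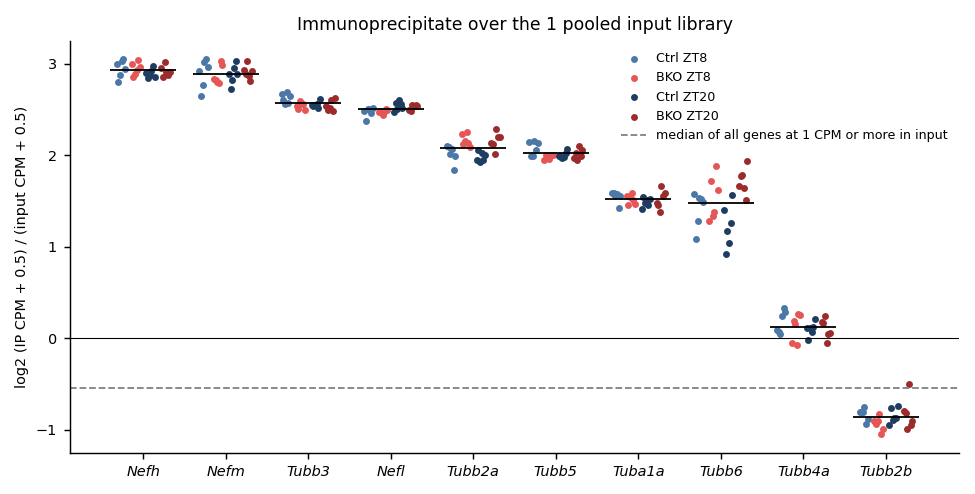
Log2 ratio of CPM (without TMM factors) in each IP library to CPM in the pooled input, with 0.5 CPM added to both, for the 10 members in falling order. Points are libraries in the colors of their conditions, black lines are means over 24 libraries and the dashed line is the median of all genes at -0.54. The 8 enriched members lie between 1.47 and 2.93 on average, Tubb4a at 0.13 and Tubb2b at -0.86.

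The IP and the whole cord held different mixtures of beta-tubulin mRNAs. Per kb of mean transcript length, Tubb3 made up 37.8 ± 0.753% of the beta-tubulin counts in the IP (SD, n = 24) and 22.9% in the input. Tubb4a was the largest component of the input with 28.1%, and made up 8.56 ± 0.740% of the IP. Tubb2b made up 4.86% of the input and 0.746 ± 0.0506% of the IP. Tubb5 was at 18.5% of the IP and 16.3% of the input, Tubb2a at 15.0% and 12.7%, and Tubb4b, a broadly expressed isotype that is not a member, at 19.3% and 14.9%. Tubb6 contributed 0.179% of the IP and 0.219% of the input. Dividing by the longest transcript instead left Tubb3 first in the IP (35.9%) and Tubb4a first in the input (35.4%), but put Tubb2a at 20.1% and Tubb5 at 11.9% of the IP, so that the order of the isotypes between them is not settled by these counts. The count ratio of Tubb2a to Tubb2b, which needs no length, was 24.8 ± 2.32 in the IP and 3.22 in the input. Oligodendrocyte markers, whose cells also make Tubb4a, summed to 1660 to 2489 CPM in the IP at both time points, with log2 ratios to the input of -4.13 to -2.85, and their part in the Tubb4a level was not tested.

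**Figure D3:**
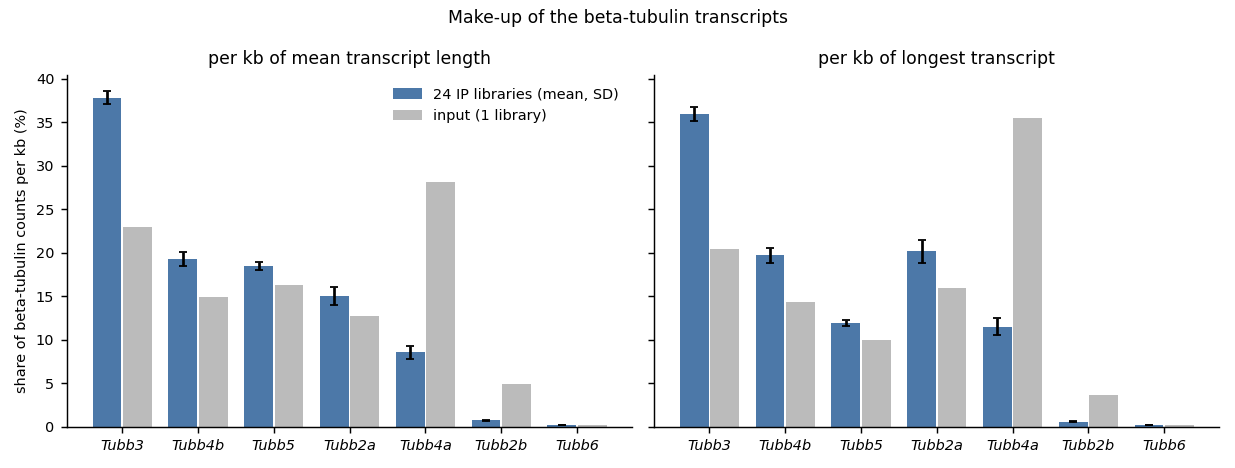
Share of each isotype in the beta-tubulin counts per kb, in percent, for the 24 IP libraries (blue, mean with SD) and the 1 input library (grey), with counts divided by the mean (left) or the longest (right) transcript length. Tubb3 leads in the IP and Tubb4a in the input with both lengths.

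The effect of Bmal1 deletion was tested at each time point, on members chosen with earlier results of these data known. At ZT20, 1 of the 10 members passed edgeR's quasi-likelihood F test (adjusted p threshold 0.05), as did 0.230% of all genes, and at ZT8 no member did, against 0.184% of all genes. At an unadjusted p under 0.05 there were 2 members at each time point, against 6.28% of all genes at ZT20 and 4.83% at ZT8. The median log2 fold change of the 10 members was 0.02 at ZT20 and -0.03 at ZT8, and that of all genes -0.01 and 0.00.

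Tubb6 (ENSMUSG00000001473, GRCm38 chromosome 18, 67390717 to 67402749, plus strand) was the member that passed the test. At ZT20 its lowest, median and highest library were at 14.9, 18.2 and 23.2 CPM in controls, and at 22.5, 25.9 and 30.5 CPM in ChAT-BKO neurons. Of the 6 ChAT-BKO libraries, 5 were above every control, and the groups overlapped through control replicate 6, at 23.2 CPM, and ChAT-BKO replicate 5, at 22.5 CPM. The means were 18.5 ± 3.02 and 26.1 ± 2.65 CPM (SD, n = 6). This is a rise of 39.5%, or 0.48 on the log2 scale (SE 0.10, 95% interval 0.27 to 0.69), with an adjusted p of 0.0461 from edgeR. In raw counts these levels rest on 117 to 595 counts per library. The call was close to the threshold. It was lost in 9 of the 12 fits that left out 1 library, which gave log2 fold changes of 0.42 to 0.55. The largest adjusted p, 0.137, arose when control replicate 4 was dropped, and the smallest, 0.0103, when control replicate 6 was. With other models on all 12 libraries, the adjusted p was 0.0506 from limma voom and 0.00211 from DESeq2. DESeq2 called 93 genes at ZT20, against 50 with edgeR. At ZT8 the Tubb6 means were 21.3 ± 2.66 CPM (controls) and 23.1 ± 3.69 CPM (ChAT-BKO), and 3 of 6 ChAT-BKO libraries were above all controls. The log2 fold change there was 0.11 (95% interval -0.12 to 0.33). The ZT20 effect exceeded the ZT8 effect by 0.39 on the log2 scale (SE 0.15, 95% interval 0.08 to 0.69), but with adjustment over all genes this difference was not significant (adjusted p = 1.00 from edgeR).

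Markers of skeletal muscle also differed between the genotypes at ZT20. The 10 markers of the list summed to 8.66 to 29.2 CPM in controls (median 12.1) and to 6.07 to 101.5 CPM in ChAT-BKO libraries (median 72.5). All 10 had an unadjusted p under 0.05 (median log2 fold change 2.11), and 3, Tnnt3, Acta1 and Mylpf, passed the adjusted threshold. At ZT8 the sums were 4.65 to 103.0 CPM in controls (median 30.5) and 5.49 to 168.3 CPM in ChAT-BKO libraries (median 7.57). None of the 10 had an unadjusted p under 0.05 from edgeR at ZT8 (median log2 fold change -0.05). The part of muscle RNA in the Tubb6 level was not tested.

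Tubb2a gave the second-smallest p of the members at ZT20 and the smallest at ZT8, and was higher in ChAT-BKO neurons in both cases without passing the adjusted threshold. At ZT20 the lowest, median and highest library were at 2009, 2078 and 2227 CPM in controls, and at 2114, 2357 and 2654 CPM in ChAT-BKO neurons. Again 5 of 6 ChAT-BKO libraries were above all controls. The difference was 12.3% (95% interval 4.66 to 20.6%), or 0.17 on the log2 scale (SE 0.05), and its adjusted p was 0.328 (edgeR). At ZT8 the controls ran from 1864 over a median of 2186 to 2319 CPM, and the ChAT-BKO libraries from 2231 over 2336 to 2568 CPM. The difference was 10.1% (95% interval 1.57 to 19.4%), or 0.14 on the log2 scale (SE 0.06), and its adjusted p was 0.979 (edgeR). The sizes at both time points differed by 0.04 on the log2 scale (95% interval -0.12 to 0.20).

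Tubb2a was also set against other tubulins of the same library. The count ratio of Tubb2a to Tubb2b at ZT8 was 22.1 to 24.2 in controls and 26.8 to 29.3 in ChAT-BKO libraries. At ZT20 it was 21.6 to 24.0 and 22.1 to 28.4. The ratio of Tubb2a to Tubb3, a gene with which it shares no stretch of 150 bases, averaged 0.443 ± 0.0243 in controls and 0.520 ± 0.0205 in ChAT-BKO libraries at ZT8. At ZT20 it was 0.455 ± 0.0183 and 0.517 ± 0.0271. As a share of beta-tubulin counts per kb, Tubb2a was 14.0 ± 0.662% in controls and 16.0 ± 0.620% in ChAT-BKO libraries at ZT8, and 14.2 ± 0.431% and 15.8 ± 0.537% at ZT20. At ZT8 the highest control was at 14.8% and the lowest ChAT-BKO library at 15.4%, and at ZT20 both were at 14.9%. These ratios are descriptions of the same counts and were not tested, and the share of other gene ratios that differ as much was not computed. The Tubb2a levels themselves overlapped between the genotypes at ZT8, and the denominators Tubb2b and Tubb3 had log2 fold changes of -0.11 and -0.09 there. Summing Tubb2a and Tubb2b into 1 gene gave log2 fold changes of 0.13 at ZT8 and 0.16 at ZT20, close to those of Tubb2a alone.

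The libraries differed in how strongly long transcripts were represented, and several members varied with this property. A length slope was computed for each library, by regression over genes of log2 CPM against the log2 of their transcript length, and ran from -0.221 to 0.0490. With condition means removed, the slope correlated with Tubb2a (Pearson's r = -0.891, Spearman's rho = -0.828, n = 24 libraries), with Tuba1a (r = -0.883, rho = -0.868) and, in the other direction, with Tubb4a (r = 0.858, rho = 0.859). Each of the 3 had a permutation p (two-sided, 100000 permutations within conditions) of 0.000133 after Benjamini-Hochberg adjustment over 20 relations. Weaker relations were found for Tubb2b (r = -0.654, rho = -0.647), Nefm (r = 0.601, rho = 0.598) and Tubb6 (r = 0.550, rho = 0.590, adjusted permutation p = 0.0161). The direction did not follow mean transcript length in every member. Tubb2b (1.31 kb), Tubb2a (1.61 kb) and Tuba1a (1.80 kb) fell with the slope. Tubb6 (1.33 kb), Tubb4a (2.23 kb) and Nefm (3.51 kb) rose. For Tubb3 (1.32 kb), Tubb5 (1.28 kb), Nefl (3.38 kb) and Nefh (3.99 kb), r was -0.463, -0.312, -0.394 and 0.285 (adjusted permutation p of 0.177 to 0.513). Leaving out the 2 libraries farthest from the median slope gave r = -0.819 for Tubb2a, -0.815 for Tuba1a, 0.854 for Tubb4a, -0.550 for Tubb2b, 0.520 for Nefm and 0.634 for Tubb6. The slope was -0.127 on average in controls and -0.119 in ChAT-BKO libraries at ZT8, and -0.130 and -0.102 at ZT20, with ranges that overlapped. Total counts of the library showed no such relation with any member (r from -0.196 to 0.136).

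With the slope as a covariate in the edgeR fit, Tubb2a passed the threshold at both time points. The log2 fold change was 0.15 (SE 0.03, adjusted p = 0.00393) at ZT8 and 0.19 (SE 0.03, adjusted p = 1.86e-05) at ZT20, in fits that called 0.708% and 0.745% of all genes. Tubb6 at ZT20 was at 0.43 in the same fit (SE 0.09, adjusted p = 0.00713). No other member was called with this covariate in any of the 5 comparisons, in which the fit called 1.84% of all genes for time in controls, 2.19% for time in ChAT-BKO neurons and 0.00460% for the difference of effects. The covariate was first applied to these data after they had been seen, so the Tubb2a call depends on a choice of model that the fit without it does not share.

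**Figure D4:**
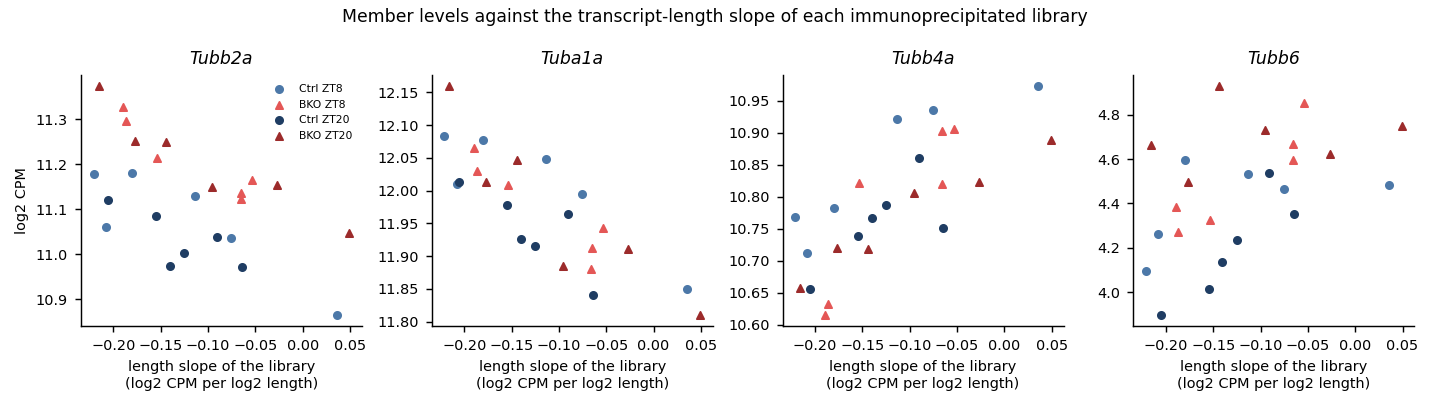
Log2 CPM of 4 members against the transcript-length slope of the library (log2 CPM per log2 length), 1 point for each of the 24 IP libraries, with circles for controls and triangles for ChAT-BKO. Tubb2a and Tuba1a fall and Tubb4a rises with the slope, and at a given slope the Tubb2a triangles lie mostly above the circles.

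Tubb5 was the only member whose libraries did not overlap between the genotypes, at ZT8, where this held for 0.570% of all genes. Complete separation occurred for no member at ZT20 (0.506% of all genes), nor between time points in controls (0.938%) or ChAT-BKO neurons (1.18%). All 6 ChAT-BKO libraries were between 2116 and 2145 CPM, below the lowest control at 2146 CPM, and the highest control was at 2433 CPM. The gap was thus below 1 CPM, and the ChAT-BKO libraries were narrowly spread (SD 12.9 CPM, against 122 CPM in controls). Its log2 fold change of -0.10 (SE 0.04, 95% interval -0.19 to -0.01) did not pass (adjusted p = 0.995 from edgeR). At ZT20 the Tubb5 means were 2164 ± 51.5 CPM (controls) and 2185 ± 121 CPM (ChAT-BKO), with a log2 fold change of 0.01 (95% interval -0.08 to 0.09).

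Tubb3, Tubb2b, Tubb4a and Tuba1a did not pass in either comparison. For Tubb3, the means were 4876 ± 226 (controls) and 4566 ± 166 CPM (ChAT-BKO) at ZT8 (log2 fold change -0.09, 95% interval -0.18 to 0.00), and 4605 ± 103 and 4575 ± 250 CPM at ZT20 (-0.02, 95% interval -0.10 to 0.07). The Tubb2b values were 93.1 ± 5.51 and 86.0 ± 5.57 CPM at ZT8 and 91.3 ± 5.44 and 93.4 ± 13.6 CPM at ZT20. Tubb4a was at 1848 ± 138 and 1768 ± 155 CPM at ZT8 and at 1735 ± 79.9 and 1747 ± 103 CPM at ZT20. Tuba1a, an alpha-tubulin of postmitotic neurons, was at 4132 ± 240 and 4026 ± 203 CPM at ZT8 and at 3932 ± 162 and 4027 ± 356 CPM at ZT20. Its log2 fold changes were -0.03 and 0.03, and those of Tubb4a were -0.06 and 0.00.

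The 3 neurofilament genes were held within narrow bounds. With the control first and ChAT-BKO second, Nefl was at 13523 ± 421 and 13434 ± 205 CPM, Nefm at 14374 ± 1391 and 14089 ± 942 CPM and Nefh at 9697 ± 567 and 9597 ± 507 CPM at ZT8. At ZT20 the values were 14023 ± 581 and 13864 ± 459 CPM for Nefl, 14174 ± 1032 and 14346 ± 661 CPM for Nefm, and 9257 ± 342 and 9429 ± 389 CPM for Nefh. None of the 6 differences passed an unadjusted p of 0.05. Log2 fold changes of the 3 genes were -0.02 to -0.00 (ZT8) and -0.02 to 0.02 (ZT20). Their 95% intervals reached at most from -10.1% to 7.72% at ZT8 and from -6.43% to 7.68% at ZT20, which bounds the size of a change in these genes that the data allow.

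**Figure D5:**
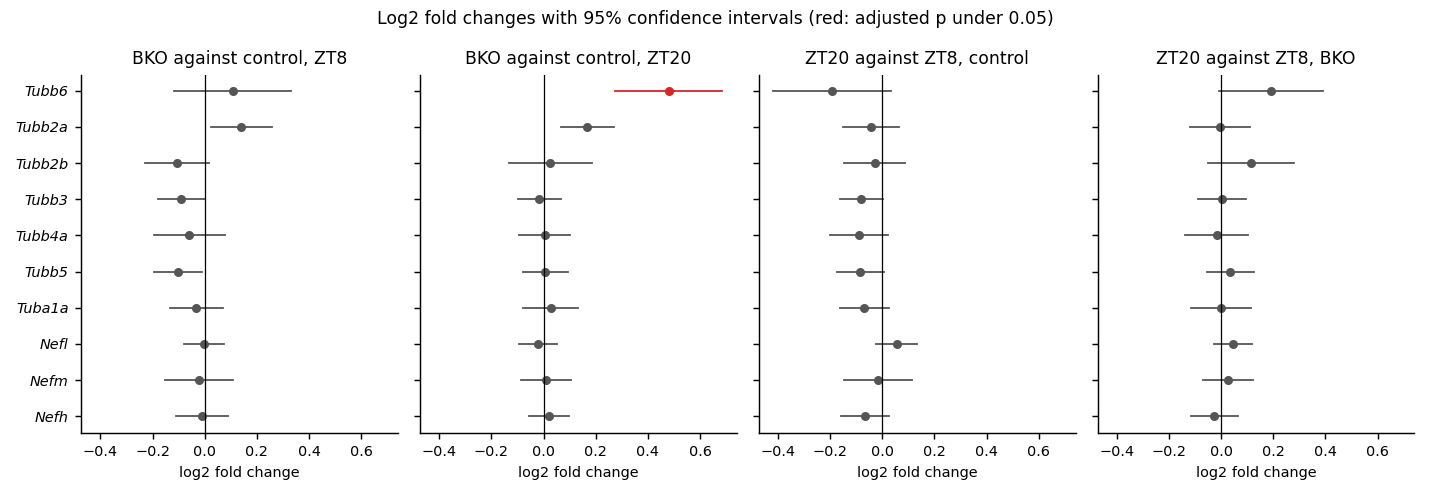
Log2 fold changes of the 10 members (points) with 95% confidence intervals (lines) in the 4 comparisons of 2 conditions, from edgeR, with the 1 result at an adjusted p under 0.05, Tubb6 at ZT20, in red. The neurofilament intervals reach from -0.16 to 0.13 at most over the 4 panels.

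The comparison of ZT20 with ZT8 asks whether the members differ between these times, in the dark and in the light, within a genotype. A rhythm with similar levels at ZT8 and ZT20 would not show here, so the comparison cannot decide whether a member is rhythmic. The paper names Nefl and Tuba1a among the genes rhythmic in control cholinergic neurons, from younger mice sampled at more times of day. In controls none of the 10 was differentially expressed (0.115% of all genes were), and none had an unadjusted p under 0.05, where 8.25% of all genes did. All 7 tubulins had negative log2 fold changes, from -0.19 for Tubb6 to -0.03 for Tubb2b, against a median of 0.00 over all genes, and the smallest adjusted p was 0.629, for Tubb3. In ChAT-BKO neurons again none was differentially expressed (0.285% of all genes were) or had an unadjusted p under 0.05 (9.42%), and the tubulins ran from -0.02 to 0.19 with Tubb6 the highest (adjusted p = 0.555 from edgeR). Neurofilament genes were between -0.06 and 0.05 in controls and between -0.03 and 0.05 in ChAT-BKO neurons. These comparisons share their samples with those of the genotypes. The ratio of Nefl to Nefh counts was 1.40 ± 0.0732 at ZT8 and 1.52 ± 0.0612 at ZT20 in controls, and 1.40 ± 0.0601 and 1.47 ± 0.0588 in ChAT-BKO neurons, with overlapping libraries.

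The difference of the genotype effects between ZT20 and ZT8 was positive for all 7 tubulins, from 0.04 for Tubb2a to 0.39 for Tubb6, and lay between -0.01 and 0.05 for the neurofilament genes. The median over all genes was 0.00, and of 9 other tubulins 6 were positive, from -0.28 to 0.17. Several of the 7 vary together across libraries, so that their signs are not separate observations. None passed, and edgeR called 0.00% of all genes for this difference, as did DESeq2. At an unadjusted p under 0.05 there were 2 members, Tubb6 and Tubb5 (0.12, SE 0.06), against 3.90% of all genes, or 848 genes.

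Several members varied together across the 24 libraries once condition means were removed. Of the 45 pairs, the closest was Tubb2a with Tuba1a, a beta- and an alpha-tubulin (r = 0.956, rho = 0.948), followed by Nefm with Nefh (r = 0.818, rho = 0.837). Tuba1a also followed Tubb2b (r = 0.780, rho = 0.693) and Tubb3 (r = 0.777, rho = 0.742). Tubb2a and Tubb2b, which share reads, varied together (r = 0.764, rho = 0.782), as did Tubb3 and Tubb5 (r = 0.746, rho = 0.697) and Tubb2a and Tubb3 (r = 0.719, rho = 0.730). Tubb4a moved against Tubb2a (r = -0.759, rho = -0.726) and Tuba1a (r = -0.693, rho = -0.742). These 9 pairs had adjusted permutation p-values of 0.000225 to 0.0037 (Benjamini-Hochberg over the 45 pairs). Without the 2 libraries farthest from the median, r was 0.941 for Tubb2a with Tuba1a, 0.757 for Nefm with Nefh, 0.638 and 0.708 for Tuba1a with Tubb2b and Tubb3, 0.707 for Tubb2a with Tubb2b, 0.663 for Tubb3 with Tubb5, 0.610 for Tubb2a with Tubb3, and -0.726 and -0.670 for Tubb4a with Tubb2a and Tuba1a. Tubulins and neurofilaments also varied together in weaker pairs. These were Tubb4a with Nefm (r = 0.619, rho = 0.599, adjusted permutation p = 0.0148), Tubb6 with Nefm (r = 0.598, rho = 0.583, p = 0.0175) and Tuba1a with Nefl (r = 0.529, rho = 0.585, p = 0.0345). Without the 2 libraries their r was 0.650, 0.445 and 0.425. Nefl was not closely tied to Nefm (r = 0.292, rho = 0.161, adjusted permutation p = 0.28, and r = 0.131 without the 2 libraries). Several of these genes share the relation to the length slope described above, and the part of the slope in the pairs was not tested.

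Among the 13721 genes at 1 CPM or more, the 3 genes most like Tuba1a by Pearson's r over the same 24 libraries were Prph (0.970), Tubb2a (0.956) and Tppp3 (0.951). For Tubb3 they were Aldoa (0.788), Tuba1a (0.777) and Ccdc92 (0.758), for Nefl Wdr5 (0.779), Anxa7 (0.763) and Rbm28 (0.749), and for Tubb6 Slc25a44 (0.848), C2cd2l (0.832) and Fam43b (0.827). Each is the top of a search over many genes and is given as a description.

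Other genes of the tubulin and neurofilament systems were summarised by list. None of them was differentially expressed in any of the 5 comparisons, over 9 other tubulins, 11 other intermediate filaments, 34 microtubule-associated proteins, 22 tubulin folding factors, 28 enzymes that modify or sever microtubules, 38 genes of the kinesin and dynein transport machinery, and 17 kinases, linkers and turnover factors of neurofilaments. With 0.184%, 0.230%, 0.115%, 0.285% and 0.00% of all genes called in these comparisons, lists of this size can be without a call at the rate of all genes, and the count says nothing particular about them. With Bmal1 deletion, the medians of the lists were -0.06 to 0.01 on the log2 scale at ZT8 and -0.04 to 0.02 at ZT20. The gene with the smallest adjusted p with Bmal1 deletion was Des, the intermediate filament protein of muscle, whose ZT20 means were 0.645 CPM (controls) and 1.93 CPM (ChAT-BKO; adjusted p = 0.127 from edgeR). Between time points it was Vash2, an enzyme that removes the C-terminal tyrosine of alpha-tubulin, with 8.38 CPM at ZT8 and 6.17 CPM at ZT20 in ChAT-BKO neurons (adjusted p = 0.130 from edgeR). In the other lists, the smallest unadjusted p over the comparisons belonged to Tubd1, delta-tubulin (2.13 and 3.59 CPM in controls at ZT8 and ZT20, adjusted p = 0.257), the tubulin cofactor-like Tbcel (29.3 CPM at ZT8 and 25.2 CPM at ZT20 in ChAT-BKO neurons, adjusted p = 0.255), the dynein heavy chain Dync1h1 (1478 and 1339 CPM in controls at ZT8 and ZT20, adjusted p = 0.396), the microtubule plus-end protein Clip2 (186 and 208 CPM in controls and ChAT-BKO neurons at ZT20, adjusted p = 0.565) and the kinase Mapk3 (268 and 242 CPM likewise, adjusted p = 0.622). Since the adjustment differs between comparisons, other genes of the last 3 lists had lower adjusted p-values, namely Bicd1 (0.312), Map1s (0.350) and Plec (0.441). Tuba1b, the other abundant alpha-tubulin, had log2 fold changes with deletion of -0.05 at ZT8 and -0.06 at ZT20, Tubb4b of -0.06 and -0.04, and Prph of -0.07 and -0.03.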

How the data were processed

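RNA-seq of HA-immunoprecipitated cholinergic neuron ribosomes from mouse spinal cord was analysed in 24 IP libraries and 1 pooled input. The deposited values are expected counts per gene, which the authors estimated with RSEM after alignment with STAR 2.7.5 to mm10; they were not normalized, and 6.11% of them are not whole. They were rounded for testing.

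Genes with at least 10 counts over the IP libraries (21738) were fitted in R 4.3.3 with edgeR 4.0.16 (TMM, quasi-likelihood F test, two-sided), each comparison on its own 12 libraries and the difference of effects on all 24. P-values were adjusted by Benjamini-Hochberg over all genes, with a threshold of 0.05. The fits were tested on simulated counts. Alternatives were DESeq2 1.42.0, its size factors in edgeR, no filter, replicate number as a block, limma 3.58.1 voom, the length slope as a covariate, paralogs summed, all libraries in 1 fit, and each library left out. The members, lists and alternatives were chosen with earlier results of these data known.

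Named genes were the 10 members, the genes of the lists with the smallest p or a call, and the 3 most like Tubb6, Tubb3, Tuba1a and Nefl; Ina, Prph, Tuba1b, Tubb4b, Bicd1, Map1s and Plec were added after their values were seen. Total counts were 4.04 to 31.7 M per IP library, and all 60 pairs of replicates differed by more than counting error (chi-square per degree of freedom 1.80 to 25.4). Each sample was 1 spinal cord. Gene positions and transcripts came from GENCODE M21 (GRCm38), promoters from RefSeq.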

Additional observations from a re-analysis of the deposited data

Results flagged for a closer look

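One value of 40 groups of 6 libraries stood apart from the rest of its group by Dixon's criterion, which chance alone gives in about 1 of 20 groups. Tubb2b was at 119.9 CPM in ChAT-BKO replicate 4 at ZT20, where the next library was at 93.4 CPM. The same library was also the highest of its condition for Tubb2a, Tubb3, Tubb5, Tuba1a and Nefl, and had the lowest length slope of its condition (-0.216). When this library was dropped, Tubb6 was the 1 member called at ZT20.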

How the results depend on the processing

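Of 1105 log2 fold changes of members recomputed under the alternatives, 1093 kept their side of the threshold, 10 lost a call, 2 gained one and none that was called changed sign. Among values that were never called, 66 changed sign, with a size of at most 0.06 afterwards. The count of members called at ZT20 was 1, and became 0 with limma voom (Tubb6 adjusted p = 0.0506) and 2 with the length slope as a covariate, which also gave 1 at ZT8 in place of 0, in both cases Tubb2a. Over the 12 fits that dropped 1 library the count was 0 to 1. No member was called in the comparisons of time points or the difference of effects under any alternative. Tubb2a without each library in turn had log2 fold changes of 0.10 to 0.16 at ZT8 and 0.13 to 0.20 at ZT20.

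Correlations of same-numbered libraries ran from -0.197 to 0.356, and in no comparison were all 6 over 0.1 (all 6 were above 0 between time points in controls, from 0.00918 to 0.356), so the numbers were not taken as pairs. With the replicate block, 1 member was called at ZT20, Tubb6 (log2 fold change 0.49, adjusted p = 0.0120), and no member in the other comparisons, while over all genes the block gave 69 calls in place of 40 at ZT8, 61 in place of 50 at ZT20, 86 in place of 25 between time points in controls and 47 in place of 62 in ChAT-BKO neurons. The length slope gave 154, 162, 401 and 475 calls in these comparisons, and DESeq2 70, 93, 127 and 218.

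With TMM over 25 libraries the log2 ratio to the input was 1.89 for Tubb6, 2.53 for Tubb2a, -0.41 for Tubb2b, 3.02 for Tubb3, 0.58 for Tubb4a, 2.47 for Tubb5, 1.97 for Tuba1a, 2.96 for Nefl, 3.34 for Nefm and 3.38 for Nefh. With the longest transcript the shares of the beta-tubulin pool were 20.1% for Tubb2a, 0.600% for Tubb2b, 35.9% for Tubb3, 11.5% for Tubb4a and 11.9% for Tubb5. Tubb6, at 117 to 595 counts per library, is the member whose precision depth limits most. Causes of these changes were not tested.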
